A study of Bos taurus with 6 samples.

Results

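The miR-26 family was followed in small RNA libraries of bovine cumulus cells, somatic cells of the follicle that enclose the oocyte and form the cumulus-oocyte complex (COC) with it. Members were the rows named bta-miR-26a, bta-miR-26b and bta-miR-26c in the deposited count table, and rows of the same mature miRNA were summed. They are 3 of 791 mature miRNAs of miRBase, in 4 of the 1055 rows. Pieces of cumulus from Bos taurus COCs of slaughterhouse ovaries were taken after in vitro maturation with follicle stimulating hormone, each oocyte was then fertilized and cultured alone, and pieces from several COCs were pooled by the fate of their oocytes. Samples A, B and C are pools whose oocytes failed to divide when exposed to sperm (not cleaved), and Samples D, E and F are pools whose oocytes grew to blastocysts (blastocyst), so every value is a mean over mixed donors and no untreated or immature sample was part of the comparison. The letters come from the column names of the table. The sources used here do not say whether pools of a group differ in collection day, and the p-values below reflect the spread among pools only. Reads carried no molecular identifiers, so intervals on shares cover counting error alone.

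Vertebrate miR-26a and miR-26b carry the same seed, the stretch near the 5′ end that pairs with target mRNAs, and differ only in bases outside it. Their precursors lie in introns of the CTDSP genes, which encode small phosphatases of the RNA polymerase II tail, and are made together with the host transcript. The family is best known from human and mouse work as a brake on growth, through targets such as the histone methyltransferase EZH2, cyclins and SMAD1. Because miR-26a is abundant in many tissues, it is often used as a reference in qRT-PCR, and the study normalized its own qRT-PCR to miR-26a, miR-191 and let-7a. The study picked these from several candidates as those most stable by geNorm in qRT-PCR. The geNorm ranks given below come from sequencing counts of pools and from candidates chosen here. They are therefore no repeat of the study's own choice.

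In the RefSeq gene table of bovine assembly ARS-UCD2.0, used here for names and neighbourhood only, MIR26B lies within CTDSP1, MIR26A-2 within CTDSP2 and MIR26A-1 within CTDSPL. MIR26C, also named MIR3603, is listed on exactly the same interval as MIR26A-1, so both entries describe a single stretch of CTDSPL. The table gives no strand, and the rows of the count table name no precursor, so neither row of miR-26a was assigned to MIR26A-1 or MIR26A-2.

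The libraries held between 2776256 and 8139237 counts, 2.93 times apart. The gonadal miR-202 was present at 6449 to 8454 CPM (counts scaled to a library total of 1000000) in not-cleaved and 5968 to 6685 CPM in blastocyst samples. Of 6 listed miRNAs of blood cells, 2 were at 0 in every library and the highest count of any was 20, and of 6 miRNAs of early embryo and germ cells, 2 were at 0 throughout and the highest count was 33. The 4 vessel and stroma miRNAs summed to 15.5 to 29.9 CPM in not-cleaved and 15.1 to 27.6 CPM in blastocyst samples, and the 4 epithelial miRNAs to 212.1 to 243.0 and 152.1 to 207.5 CPM. In the study, the caption of the principal component plot sets Samples B and E apart, while its text names Samples C and E. Group differences, shares, ratios and stability are also given without Samples B and E, in part after their values were seen. Sample C was left out only by itself.

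miR-26a was among the most abundant miRNAs of cumulus cells. By mean CPM it ranked 9 of 956 mature and putative miRNAs, at 13535 CPM (SD 2919, n = 6), between miR-30d (16325 CPM, SD 2297) and miR-10b (12014 CPM, SD 1453), both within the spread of the libraries. This rank and the shares below rest on summed rows. If reads were counted in more than a single row, the sum overstates miR-26a and its rank would be lower. Not-cleaved Samples A, B and C held 109509, 41919 and 70035 counts of miR-26a, or 1.39%, 1.51% and 1.64% of their totals. Blastocyst Samples D, E and F held 74445, 56261 and 40271 counts, or 0.915%, 1.58% and 1.08%. Sample E thus lay with the not-cleaved samples and Samples D and F below all of these. The Wilson 95% interval of the shallowest library, Sample B, ran from 1.496% to 1.524%, so counting error is far below the differences between libraries.

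Samples D and F were also those in which miR-21-5p, the most abundant miRNA, took the largest share of counts, 61.5% and 55.04% against 39.7% to 48.5% in the other 4. With the counts of miR-21-5p subtracted from each total, miR-26a took 2.70%, 2.505% and 3.16% in Samples A, B and C and 2.37%, 3.03% and 2.41% in Samples D, E and F. The groups again overlapped, and the highest and lowest libraries stayed Samples C and D. On this base the blastocyst mean of miR-26a was 0.934 times the not-cleaved mean (exact permutation test, two-sided, p = 0.5). Fitted without miR-21-5p in the table, the log2 fold change of miR-26a between the fates was -0.24, against -0.25 with it.

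miR-26b was an order of magnitude less abundant, ranking 46 of 956 at 1193 CPM (SD 250.8, n = 6), next to miR-452 (1455 CPM) and miR-660 (1176 CPM). It had 11479, 3982 and 5476 counts in Samples A, B and C and 6478, 3920 and 4029 in Samples D, E and F. In CPM these were 1459, 1434 and 1280.2 in not-cleaved samples and 795.9, 1104 and 1083 in blastocyst samples. On this scale each blastocyst sample lay below each not-cleaved sample. Fitted with library totals alone, the log2 fold change of blastocyst over not cleaved was negative for 198 of all 316 miRNAs tested. It was positive for 118, and the median was -0.12. The share of miRNAs without overlap was not counted on this scale. As a share of counts without miR-21-5p, miR-26b took 0.283%, 0.238% and 0.247% in Samples A, B and C and 0.207%, 0.211% and 0.241% in Samples D, E and F. There the groups overlapped, since Sample F lay above Sample B (exact permutation test, two-sided, p = 0.2). The summed CPM of the 4 epithelial miRNAs, none of them at 0 throughout, did not overlap between the fates, while the CPM of miR-202 did. In CPM scaled by TMM factors (library totals corrected for composition), miR-202 did not overlap. It was then at 7016 to 8059 in not-cleaved and 6270 to 6965 in blastocyst samples. On that scale the epithelial miR-200a did not overlap and miR-200b did, and 28 of all 316 miRNAs tested (8.86%) did not overlap. Of the 21 cell type markers listed, 5 could be tested, and all 5 had lower point estimates in blastocyst samples with 0 past the threshold. Their log2 fold changes ran from -0.44 (miR-200a, SE 0.26) to -0.002 (miR-143, SE 0.36). With TMM factors, lower point estimates were found for 168 of all 316 miRNAs tested (53.2%). The part of these markers in the difference of miR-26b was not tested. In such pools, fewer cells of a type and less of a miRNA per cell cannot be told apart. miR-26c, listed on the interval of a miR-26a precursor, had 1 count in Sample E and 0 in the other 5 libraries. A count of 0 allows up to 3 counts, or 0.369 CPM in the deepest library and 1.08 CPM in the shallowest, so lower levels were not detectable at this depth. It did not pass the expression filter, had no test and adds nothing to the values below.

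With counts scaled by TMM factors, the fates were compared by edgeR's quasi-likelihood test over the 316 mature and putative miRNAs that passed its filter. miR-26a was at 13451, 12888 and 17813 TMM-scaled CPM in Samples A, B and C and at 9609, 16148 and 11277 in Samples D, E and F. Not-cleaved samples averaged 14717 ± 2696 (SD, n = 3), and blastocyst samples averaged 12345 ± 3397 (SD, n = 3). Its log2 fold change of blastocyst over not cleaved was -0.25 (SE 0.24, adjusted p = 0.991 in edgeR), and its sign turned when upper-quartile factors were used (0.07), under which the median of all tested miRNAs was 0.25 in place of -0.02. For miR-26b the TMM-scaled CPM were 1410.0, 1224 and 1393 in not-cleaved and 836.2, 1125 and 1128 in blastocyst samples. These averaged 1342 ± 103 (SD, n = 3) and, for blastocyst, 1029.9 ± 168 (SD, n = 3), with a log2 fold change of -0.38 (SE 0.19, edgeR unadjusted p = 0.0783 and adjusted p = 0.991). Neither member passed the threshold. Of all 316 tested, 0 (0%) passed an adjusted p of 0.05 in edgeR and in DESeq2, and 8 (2.53%) had an unadjusted p under 0.05 in edgeR and 4 in DESeq2.

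**Figure D1:**
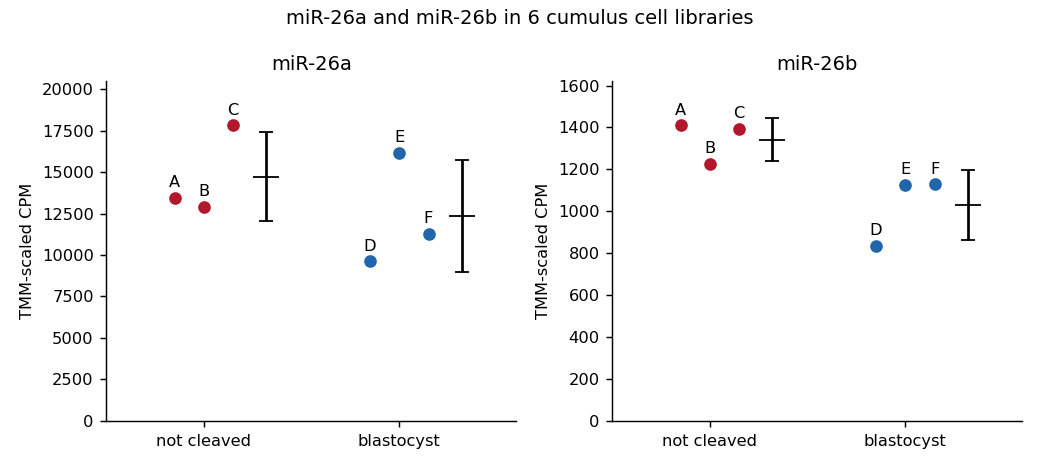
TMM-scaled CPM (vertical axes, from 0) of miR-26a and miR-26b in the 3 not-cleaved (red, Samples A to C) and 3 blastocyst (blue, Samples D to F) libraries, with a bar for the mean and whiskers for 1 SD. For miR-26a, Sample E at 16148 lies above Samples A and B. For miR-26b the lowest not-cleaved value, 1224, lies above the highest blastocyst value, 1128.

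Groups did not overlap for miR-26b, 1 of the 2 members tested, against 28 of 316 miRNAs (8.86%), and 168 of 316 (53.2%) had lower point estimates in blastocyst samples, as both members did. An exact permutation test (two-sided) on TMM-scaled CPM gave p = 0.1 for miR-26b, the smallest that 3 libraries against 3 allow, and p = 0.4 for miR-26a. Single libraries set the size of the miR-26a difference. It was -0.08 without Sample C, -0.10 without Sample D and, with Sample E left out, -0.49 (edgeR unadjusted p = 0.0438, adjusted p = 0.789), and -0.59 without both Samples B and E (unadjusted p = 0.0318, adjusted p = 0.992). For miR-26b the range over the 6 leave-one-out fits was narrower, -0.45 to -0.25, and it was -0.52 without Samples B and E. The share of the whole family averaged 1.65% ± 0.114 (SD, n = 3) for not-cleaved pools and 1.29% ± 0.361 (SD, n = 3) for blastocyst pools. The exact permutation test, two-sided, gave p = 0.3. That difference of -0.36 points was -0.56 without Sample E, -0.56 without both Samples B and E and -0.21 without Sample D. As a share of counts without miR-21-5p, the family averaged 3.04% and, for blastocyst pools, 2.82%, a difference of -0.22 points (exact permutation test, two-sided, p = 0.5).

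The balance between members varied between libraries more than between fates. For each 100 counts of miR-26a, miR-26b had 10.5, 9.499 and 7.82 in Samples A, B and C and 8.70, 6.97 and 10.005 in Samples D, E and F. Each group held a high and a low library, and the highest was 1.504 times the lowest. The Wilson 95% interval for the share of miR-26b among both members was 6.32% to 6.71% in Sample E and 9.32% to 9.65% in Sample A, so these libraries differed by more than counting error. Both intervals use the summed rows of miR-26a and assume that each read was counted in a single row. The log2 ratio of miR-26b to miR-26a averaged -3.44 ± 0.22 (SD, n = 3) for not-cleaved pools and -3.56 ± 0.26 (SD, n = 3) for blastocyst pools. The difference of -0.12 was smaller than either SD (two-sided exact permutation test, p = 0.6, adjusted p = 0.6 over 2 ratios), and it was 0.02 without Sample E, 0.04 without Samples B and E and -0.24 without Sample F.

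The rows of miR-26a were nearly equal in every library. Among not-cleaved samples they held 55344 and 54165 counts in Sample A, 21329 and 20590 in Sample B, and 35384 and 34651 in Sample C. Among blastocyst samples they held 37642 and 36803 in Sample D, 28488 and 27773 in Sample E, and 20536 and 19735 in Sample F. The same row was higher in all 6 libraries, by 1.05% of the sum in Sample C to 1.99% in Sample F. Wilson 95% intervals for the share of the higher row lay above 50% throughout, the lowest bound being 50.15% in Sample C. These intervals hold only if each read was counted in a single row. Among the 10 mature miRNAs with a pair of rows and at least 1000 counts in every library, the median difference over libraries, as a share of the sum, ran from 0.422% (miR-320a) to 13.2% (miR-128), and miR-26a was at 1.20%. The log2 ratio of the rows was 0.04 in both groups (exact permutation test, two-sided, p = 0.5, adjusted p = 0.6). The sources used here do not say how reads that match both precursors were divided. If each such read was counted in both rows, the sum overstates miR-26a, and miR-26b would stand at 13.9 (Sample E) to 21.0 (Sample A) counts for each 100 of the mean row. Fold changes hardly depend on this, since the rows fitted apart gave -0.26 and -0.27.

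**Figure D2:**
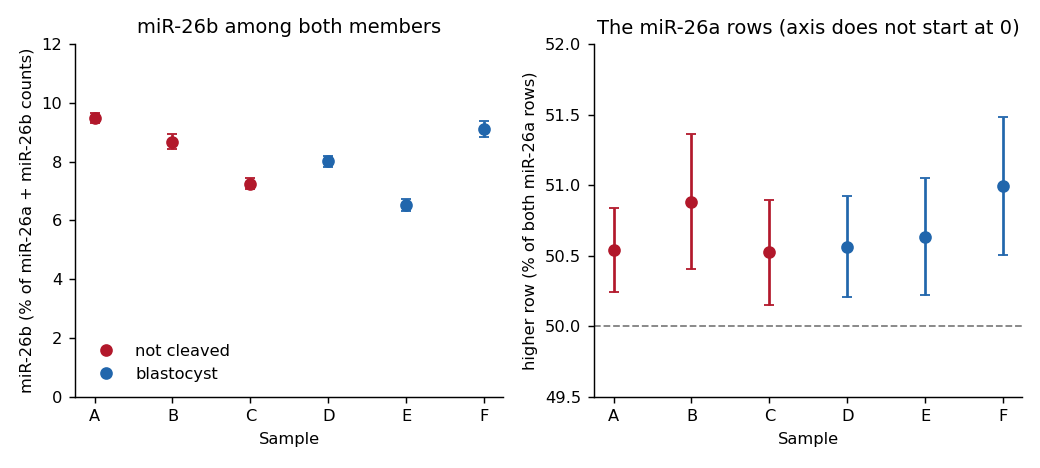
Left, miR-26b as a percentage of miR-26a plus miR-26b counts in each library, from 6.51% in Sample E to 9.49% in Sample A. Right, the higher of the miR-26a rows as a percentage of both, on an axis that does not start at 0, with a dashed line at 50%, where all 6 points lie above the line. Whiskers are Wilson 95% intervals, red is not cleaved and blue is blastocyst. The intervals on both sides hold only if each read was counted in a single row.

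To describe how miR-26a behaves as a reference, its spread was set beside that of the 71 mature and putative miRNAs with at least 1000 counts in every library. The SD over 6 libraries of its log2 TMM-scaled CPM was 0.33, against a median of 0.26 over the 71, and it ranked 56 of 71 from the least variable. The geNorm measure M, the mean SD of the log2 ratios to all other candidates, needs no library scaling. It was 0.39 for miR-26a (rank 47 of 71), with a range of 0.28 to 0.52 and a median of 0.37. miR-26b was steadier by both measures, with an SD of 0.28 (rank 44) and an M of 0.36 (rank 32). The lowest M belonged to miR-30a-5p (0.28, SD 0.07), miR-30d (0.29, SD 0.12) and miR-30e-5p (0.29, SD 0.14), of which the second is also more abundant than miR-26a. Candidates share libraries and several belong to families that vary together, so these ranks describe the libraries and carry no test.

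**Figure D3:**
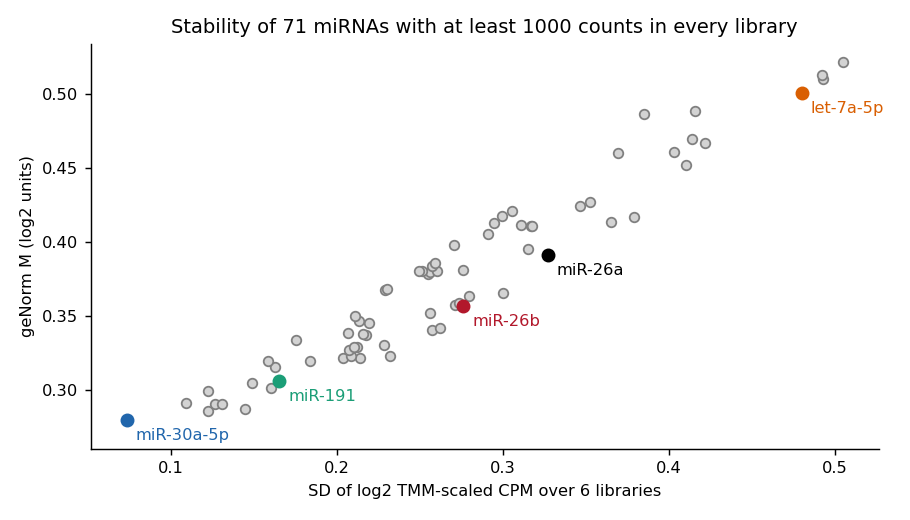
SD of log2 TMM-scaled CPM over 6 libraries (horizontal) and geNorm M in log2 units (vertical, axis from 0.26) for the 71 miRNAs with at least 1000 counts in every library, each a grey circle, with 5 named in colour. miR-26a, at 0.33 and 0.39, lies to the upper right of miR-191, at 0.17 and 0.31, and to the lower left of let-7a-5p, at 0.48 and 0.50.

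The spread depended on the scale. The SD of miR-26a was 0.34 in CPM of library totals (rank 52 of 71) and 0.17 in CPM of a total without miR-21-5p (rank 12 of 71), while M kept rank 47 of 71 in each case because it does not use the total. Within a fixed panel of 15 miRNAs in common use as qPCR references, M put miR-26a at rank 12, with miR-16a first (M 0.49), miR-30e-5p second (0.51) and miR-191 at rank 4. The M of miR-26a in this panel was 0.62, and 0.39 without Sample E, at the same rank. When the least stable candidate was removed step by step, miR-423-5p, miR-423-3p and let-7a-5p left first and miR-26a next, at an M of 0.41 with 12 candidates left. The pair that remained was miR-93 and miR-103 (M 0.06), where M is only the SD of their log2 ratio to each other. Over the 71 candidates, M was 0.39 for miR-93 (rank 46) and 0.42 for miR-103 (rank 57), beside rank 47 for miR-26a. miR-423-5p and miR-423-3p stood at SDs of 1.88 and 1.57, and Sample E held only 532 counts of miR-423-5p, where the other 5 libraries had a median of 15390.

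Of the references used in the study, miR-191 was the steadiest over the 6 libraries on the TMM scale and let-7a-5p the least steady, an order that rested on Sample D. miR-26a had its highest value 1.85 times its lowest, miR-191 1.32 times (3041 in Sample D to 4018 TMM-scaled CPM in Sample E) and let-7a-5p, of the growth-restraining let-7 family, 2.38 times (19739 in Sample D to 46965 in Sample C). Without Sample D, let-7a-5p varied least, at 1.154 times, against 1.26 times for miR-191 and 1.58 times for miR-26a. All 3 had their lowest value in Sample D, where miR-26a was 0.46 and let-7a-5p 0.96 log2 units below its own mean over the libraries. The geometric mean of the 3 was thereby 0.55 log2 units below its mean in Sample D and 0.26 above it in Sample C, with an SD of 0.30, close to that of miR-26a alone. Among these 3 alone, M was 0.26 for miR-26a, 0.30 for miR-191 and 0.35 for let-7a-5p, so miR-26a was the closest to the other two and its log2 ratio to miR-191 had an SD of 0.21. Without Sample D these values were 0.21, 0.18 and 0.19, and miR-26a was then the farthest from the others. Point estimates were lower in blastocyst samples for each reference, with log2 fold changes of -0.25 (SE 0.24) for miR-26a, -0.14 (SE 0.17) for miR-191 and -0.22 (SE 0.32) for let-7a-5p, all at adjusted p = 0.991 in edgeR. The geometric mean differed by -0.25 log2 units (two-sided exact permutation test, p = 0.4, adjusted p = 0.533 over the 3 references and their mean).

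**Figure D4:**
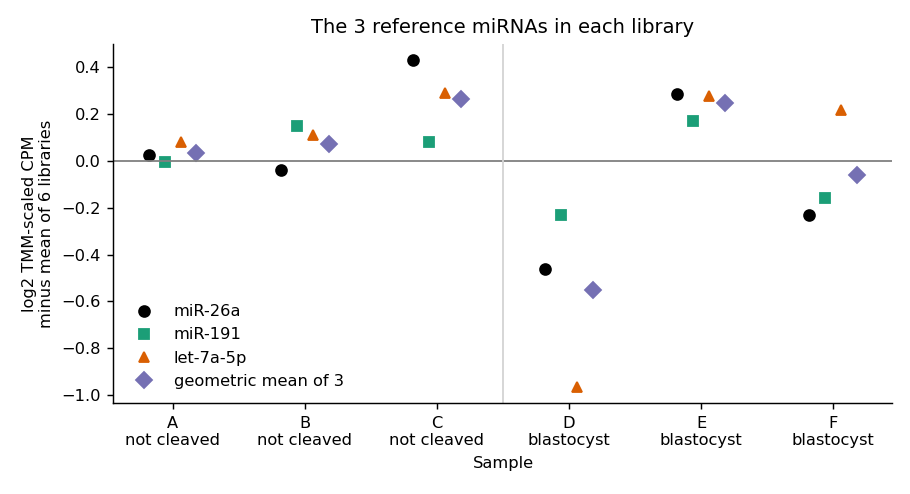
Log2 TMM-scaled CPM of miR-26a, miR-191, let-7a-5p and their geometric mean in each library, minus the mean of that reference over the 6 libraries (vertical axis, log2 units). In Sample D, all 4 markers lie below 0, at -0.46, -0.23, -0.96 and -0.55.

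The miRNAs that kept the most constant ratio to miR-26a over the 6 libraries, among the other 70 candidates, were let-7g (SD of the log2 ratio 0.14), miR-155 (0.14), miR-222 (0.17), let-7e (0.18) and let-7f (0.18). let-7g, let-7e and let-7f share the let-7 seed, miR-155 is best known from immune cells, and miR-222 targets the cell cycle inhibitor p27. miR-26b itself came 9th (0.22), and the median of the 70 was 0.40. The least constant were miR-182 (0.65) and miR-101 (0.60). miR-101, which like miR-26a represses EZH2, had a log2 fold change of 0.52 (SE 0.16, unadjusted p = 0.0158 and adjusted p = 0.991 in edgeR), a point estimate of the other sign than that of miR-26a.

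Some miRNAs were followed by qRT-PCR relative to these references in the study. Sequencing counts of 7 such targets were expressed relative to miR-26a. For the target let-7g there were 3.03, 3.69 and 2.83 counts per count of miR-26a in Samples A, B and C and 3.19, 2.91 and 3.27 in Samples D, E and F, with the groups overlapping. For let-7i there were 3.91, 4.76 and 3.97 in not-cleaved and 5.33, 4.01 and 3.69 in blastocyst samples, where Sample D was the highest and Sample F the lowest. Relative to miR-26a the log2 difference of blastocyst minus not cleaved was -0.02 for let-7g and 0.03 for let-7i, and relative to the library total it was -0.40 and -0.35. The SD over the libraries was 0.14 and 0.20 relative to miR-26a and 0.33 and 0.31 relative to the total. miR-222 had 2.95, 2.803 and 2.98 counts per 100 of miR-26a in not-cleaved and 2.32, 2.29 and 2.86 in blastocyst samples, where Sample F reached the not-cleaved range. Its difference was -0.61 relative to the total (two-sided exact permutation test, p = 0.1), with no overlap of the groups, and -0.23 relative to miR-26a (p = 0.2). Relative to the geometric mean of the 3 references it was -0.26, again with no overlap (two-sided exact permutation test, p = 0.1, adjusted p = 0.7). Relative to the TMM-scaled total it was -0.51, and there the groups overlapped (two-sided exact permutation test, p = 0.2). On the TMM scale 28 of all 316 miRNAs tested (8.86%) did not overlap, and this share was not counted on the other scales.

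miR-218, a miRNA of the SLIT genes, had 6.45 to 8.38 counts per 100 of miR-26a in the not-cleaved samples and 7.88 and 7.03 in Samples D and F, but 0.276 in Sample E. miR-342 had 1.16 to 1.91 in not-cleaved samples, 3.84 in Sample D, 1.28 in Sample F and 0.0355 in Sample E. For both, Sample E decided the difference relative to miR-26a, which was -1.56 and -1.38 with all libraries and 0.03 and 0.61 without Sample E. For miR-218 it was -1.94 relative to the library total and -1.83 relative to the TMM-scaled total (two-sided exact permutation tests, p = 0.1 each). Sample E held only 155 counts of miR-218, against 5863 in Sample D and 2832 in Sample F, and these differences are not given without it. Counts of miR-218, with rows summed, exceed those that the study lists for it. Reads counted in more than a single row would overstate them. On the TMM scale the groups did not overlap for miR-218, as for 28 of all 316 miRNAs tested (8.86%), and overlapped for miR-342. miR-2478 and miR-424-3p had at most 0.372 and 0.449 counts per 100 of miR-26a, with differences of 0.36 and 0.55 and overlapping groups. The difference of miR-424-3p was 0.25 without Sample B, 0.32 without Sample F and 0.86 without Sample D. Across the 7 targets the lowest adjusted p was 0.9 relative to miR-26a, 0.7 relative to the 3 references and 0.35 relative to the library total (two-sided exact permutation tests, Benjamini-Hochberg over 7).

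**Figure D5:**
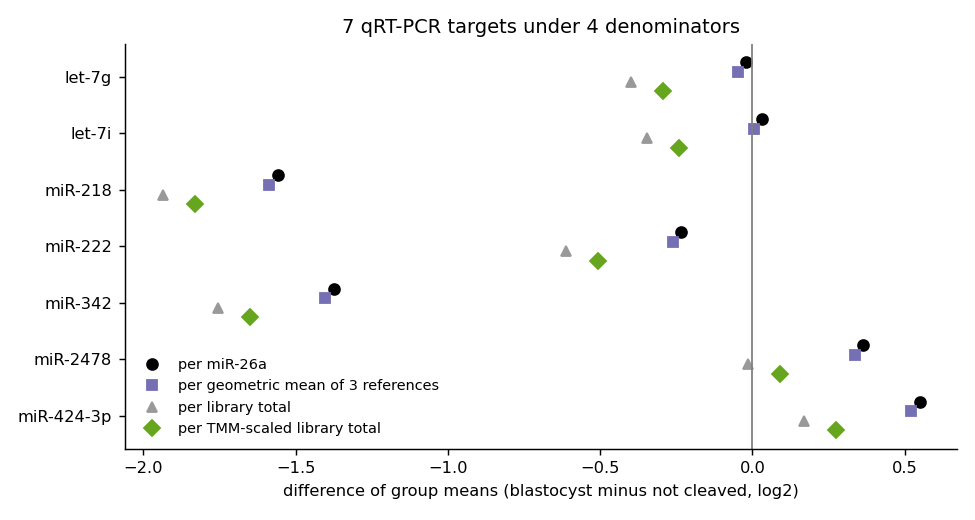
Difference of group means, blastocyst minus not cleaved, in log2 units (horizontal axis), for 7 miRNAs relative to miR-26a, to the geometric mean of the 3 references, to the library total and to the TMM-scaled total, each a marker. Every marker relative to miR-26a lies 0.38 to the right of that relative to the library total, which moves let-7g from -0.40 to -0.02.

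Since miR-26a itself had a lower mean in blastocyst samples, dividing by it raised every difference by 0.38 log2 units against the library total, and dividing by the 3 references raised it by 0.35. The size of this shift depends on the total. Dividing by the TMM-scaled total alone raised every difference by 0.10 against the library total. With miR-21-5p left out of the total, the blastocyst mean of miR-26a was 0.934 times the not-cleaved mean. Over all 316 miRNAs the split of point estimates was 148 higher and 168 lower in blastocyst samples with TMM factors. It was 241 higher and 75 lower when libraries were scaled to miR-26a, with a median of 0.27, and 237 higher and 79 lower when scaled to the 3 references. No scaling gave a call in edgeR, with 11 and 10 miRNAs at an unadjusted p under 0.05 under these scalings. Scaled to miR-26a, miR-26b had a log2 fold change of -0.11 (SE 0.26).

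Other miRNAs known to act on a target of miR-26a were present at very different levels. Of 5 further repressors of EZH2, 3 were tested, with 2 point estimates higher, 1 lower and 0 past the threshold, where 53.2% of all miRNAs tested had lower point estimates. The median log2 fold change of the 3 was 0.24, against -0.02 over all miRNAs tested, and is the value of miR-214 alone, which had 13 to 119 counts a library (SE 0.61). miR-101 stood at 2631 CPM, miR-214 at 7.94 CPM and miR-138 at 2.21 CPM, while miR-124a reached at most 2 counts and miR-124b had 0 in every library.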

How the data were processed

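Small RNA libraries of 6 cumulus cell pools were prepared with a NEBNEXT kit and sequenced by the study on an Illumina NextSeq instrument, and miRNAs were identified by miRBase release 20. The authors deposited whole-number counts per miRBase row or putative miRNA, with no normalization. Aligner, counter and genome build: not given in the sources used here. From the authors, a deposited comparison (fold changes, p-values, FDR values, group means) and the heat map values, which hold no miR-26 row, were not used. Columns were placed in groups by the ending of their names.

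Rows of the same mature miRNA were summed (59 mature miRNAs have 158 rows). Counts were filtered by filterByExpr, scaled by TMM and tested by edgeR 4.0.16 (quasi-likelihood, Benjamini-Hochberg at 0.05) in R 4.3.3, with DESeq2 1.42.0 as an alternative. The SE is the absolute log2 fold change over the square root of F. Ratios and shares were compared in Python 3.11.15 with exact permutation tests. The fit and the other measures were tested on simulated data. Library totals ran from 2776256 to 8139237 counts. Members, lists and tests were chosen with earlier results of these data known. Named miRNAs were the members, the study's references and targets, list members, neighbours in abundance, the 5 most and 2 least constant relative to miR-26a and the 3 of lowest M. miR-320a, miR-128, miR-16a, miR-93, miR-103 and both miR-423 arms were named for their place in a ranking. No mature sequences were used here. A further list of miRNAs fixed at the start is not reported here.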

Additional observations from a re-analysis of the deposited data

How the results depend on the processing

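The group differences of miR-26a and miR-26b kept their sign and stayed past no threshold under every alternative run (other scalings, DESeq2, edgeR's exact test, other filters, unsummed rows, leaving out miR-21-5p, Samples B and E or any single library, and, added after seeing the data, scaling to the 3 references and, for miR-26b only, to miR-26a), except that miR-26a was at 0.067 with upper-quartile factors, where the median of all was 0.25. Leave-one-out ranges were -0.49 to -0.08 for miR-26a, -0.45 to -0.25 for miR-26b, -0.56 to -0.21 points for the family's share, -0.24 to 0.020 for the ratio of miR-26b to miR-26a and -0.0028 to 0.0116 for the ratio of the miR-26a rows. No alternative gave a called miRNA or target. miR-26c could be fitted only without a filter and rests on 1 count.

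The M of miR-26a was 0.52 over 152 candidates with at least 100 counts (rank 96), 0.31 over 26 with at least 10000 (rank 13) and 0.43 without Samples B and E (rank 64 of 83), and 0.33 to 0.42 with a library left out. Its SD was 0.17 without miR-21-5p in the total, 0.38 without Samples B and E and 0.26 to 0.37 with a library left out. Relative to miR-26a, leave-one-out differences ran from -0.10 to 0.090 for let-7g, -0.13 to 0.14 for let-7i, -2.39 to 0.027 for miR-218, -2.76 to 0.61 for miR-342, -0.14 to 0.76 for miR-2478, -0.34 to -0.18 for miR-222 and 0.25 (without Sample B) to 0.86 (without Sample D) for miR-424-3p. Without Samples B and E, added after seeing the data, the ratio of miR-26b to miR-26a was at 0.044, and relative to miR-26a let-7g was at 0.14, miR-218 at 0.017, miR-342 at 0.81 and miR-424-3p at 0.16. let-7i was at -0.35 relative to the library total and -0.24 relative to the TMM-scaled total, and miR-2478 at -0.014 relative to the library total. A change of denominator moves every target by the same amount, 0.38 between miR-26a and the library total. The cause of the changes with libraries left out was not tested. No paired analysis was possible because the columns carry no replicate numbers. With 3 pools a group, exact tests cannot go below p = 0.1.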
